A study of Homo sapiens with 18 samples.

Results

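The insulin-like growth factor (IGF) binding proteins IGFBP1 to IGFBP7, the receptors IGF1R and INSR and the ligand IGF2 were followed in 3 human lung cancer cell lines before and after an epithelial-mesenchymal transition (EMT). The genes were selected on their symbols as an IGF axis group, because IGFBP5 was among the genes with the largest increases from parental to mesenchymal cells in all 3 lines. The values that chose the group are therefore the mesenchymal minus parental differences, which are given here as a description and with no p value for these genes. Of the 10 genes, 9 were among the 19849 genes of the deposited table, each read by 1 probe set, and IGF2 was not analysed here. The lines were A549, HCC827 and NCI-H358, all established from non-small cell lung cancers. Each line was represented by 3 arrays of parental cells and 3 arrays of mesenchymal cells, 18 arrays in all. Mesenchymal cells had grown for 3 weeks, per the labels, with TGFβ at 2 ng/ml, a cytokine that induces EMT in culture. They were moved to medium without TGFβ on the day before lysis. All groups were grown in the same RPMI1640 medium with 10% fetal bovine serum. Per a figure legend of the study, the 3 arrays of a group were separate biological samples prepared together, so the spread between them leaves out variation between experiments.

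IGFs are secreted growth factors that signal through IGF1R, a receptor tyrosine kinase, and through the related insulin receptor INSR. The binding proteins hold IGFs in the pericellular space and in blood, where they can withhold the ligand from the receptor, protect it or deliver it, and several also act without IGF. Proteases such as PAPPA and HTRA1 cut the binding proteins and so free the ligand. In lung adenocarcinoma the axis is best known for growth and survival signalling through the adaptors IRS1 and IRS2 and the PI3K and AKT kinases.

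The regions before the start sites of IGFBP5, IGFBP3 and IGFBP6 are shown because IGFBP5 was higher in the mesenchymal cells of all 3 lines and the other 2 genes were lower in them. The sequences are from RefSeq on GRCh38.p14, where 7 of the 9 genes had an entry. Each holds the 250 bases before the start site, written 5′ to 3′ on the gene's strand. IGFBP5 lies at chr2:216695550-216695799 on the minus strand, IGFBP3 at chr7:45921273-45921522 on the minus strand and IGFBP6 at chr12:53097417-53097666 on the plus strand. Capitals mark the letters CACCTG, read on either strand, which form the E-box that the EMT repressors of the SNAI and ZEB families can bind.
IGFBP5: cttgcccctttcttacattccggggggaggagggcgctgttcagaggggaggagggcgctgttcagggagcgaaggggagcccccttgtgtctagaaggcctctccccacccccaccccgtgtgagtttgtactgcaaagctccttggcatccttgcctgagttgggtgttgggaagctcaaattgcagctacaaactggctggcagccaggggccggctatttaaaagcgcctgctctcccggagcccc
IGFBP3: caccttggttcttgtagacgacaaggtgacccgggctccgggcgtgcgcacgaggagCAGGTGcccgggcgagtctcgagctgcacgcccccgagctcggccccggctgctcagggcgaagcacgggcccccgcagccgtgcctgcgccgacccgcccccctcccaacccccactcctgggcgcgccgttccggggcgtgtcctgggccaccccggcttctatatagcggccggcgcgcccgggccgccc
IGFBP6: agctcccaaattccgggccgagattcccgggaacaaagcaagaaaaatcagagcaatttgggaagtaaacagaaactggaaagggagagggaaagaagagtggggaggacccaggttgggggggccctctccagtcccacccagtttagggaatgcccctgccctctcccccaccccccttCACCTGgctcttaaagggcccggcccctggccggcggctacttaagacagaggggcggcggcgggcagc

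The E-box letters occurred once before IGFBP3, from position -193 relative to its start, once before IGFBP6, from position -69, and not before IGFBP5. They occurred in 17.5% of the 35116 RefSeq promoter windows of the same length. The letters TATAAA of the core promoter box (10.7% of windows), CAGAC of SMAD binding sites (38.0% of windows) and TGANTCA of AP-1 sites (6.57% of windows) were searched on both strands and matched none of the 3 regions. No match overlapped another. G and C made up 61.2% of the IGFBP5 and IGFBP6 regions and 76.0% of the IGFBP3 region. These matches describe the listed letters only, variants of them were not searched, and no binding was measured. In the RefSeq gene table of the same assembly IGFBP1 and IGFBP3 are neighbours on chromosome 7, and IGFBP2 and IGFBP5 are neighbours on chromosome 2, with 0 genes starting between them in each case.

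The arrays agreed closely within groups. Over all genes the standard deviation of the log2 differences between arrays of the same group was 0.163 to 0.282, against at least 0.719 between arrays of different groups, and array medians lay between 6.31 and 6.47. The EMT labels were checked against marker genes. CDH1, the epithelial cadherin, fell by 5.81 (A549), 2.95 (HCC827) and 3.94 (NCI-H358) on the log2 scale, and FN1, fibronectin, rose by 3.11, 3.98 and 1.99 (limma, adjusted p at most 4.1e-07). Of 7 epithelial markers 3 fell in A549, where KRT8 (-0.54), KRT18 (-0.34), CLDN7 (-0.15) and ESRP1 (0.041) were not called, and 7 fell in each of the other lines. Of 7 mesenchymal markers, CDH2, FN1 and SNAI2 were called higher in all 3 lines. VIM (0.79), ZEB1 (0.79), SNAI1 (0.52) and TWIST1 (-0.020) were not called in A549. In HCC827 and NCI-H358 VIM and ZEB1 were called higher, and SNAI1 and TWIST1 were called in no line. NKX2-1, a lung lineage factor, was near the low end of the array scale in A549 cells. Of 9 markers of leukocytes, endothelium, fibroblasts and mural cells, LUM, a matrix proteoglycan, rose in all 3 lines (2.15, 3.93 and 2.15). The mean level of these 9 markers was 4.58 to 4.77 in parental and 5.0 to 5.11 in mesenchymal A549, 4.72 to 4.92 and 5.44 to 5.65 in HCC827, and 5.34 to 5.43 and 5.59 to 5.71 in NCI-H358 arrays, and its part in the results was not tested. PTPRC, the leukocyte marker CD45, stayed between 2.83 and 3.18 in the group means.

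IGFBP5, a matrix-binding IGF carrier known from bone and from fibroblasts, went from the low end of the array scale in parental cells to a high level in mesenchymal cells of every line. In parental A549 cells its log2 level was 4.53, 4.49 and 4.51 on the 3 arrays, and in mesenchymal A549 cells it was 9.95, 10.03 and 9.85. In HCC827 the arrays read 3.58, 3.64 and 3.65 in parental and 9.14, 8.97 and 9.64 in mesenchymal cells. In NCI-H358 they read 3.30, 3.80 and 3.48 in parental and 10.00, 9.85 and 10.04 in mesenchymal cells. Every mesenchymal array lay above every parental array, with a gap of 4.74 between the mean of the highest parental group, A549, and that of the lowest mesenchymal group, HCC827. The mean log2 level was higher by 5.43 (A549), 5.63 (HCC827) and 6.44 (NCI-H358) (SE 0.14 in each), which is 43.2-fold, 49.4-fold and 86.6-fold. It ranked 27 from the top of all 19849 genes in A549 cells, 23 in HCC827 cells and 1 in NCI-H358 cells. Mean parental levels lay at the 23.2, 12.2 and 10.4 percentiles of all genes on those arrays, and the mesenchymal levels at the 89.2, 83.3 and 89.5 percentiles. The table has no detection calls, so how far the parental levels stood above background was not tested. In bulk RNA, more cells with the transcript and more transcript per cell cannot be told apart.

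**Figure D1:**
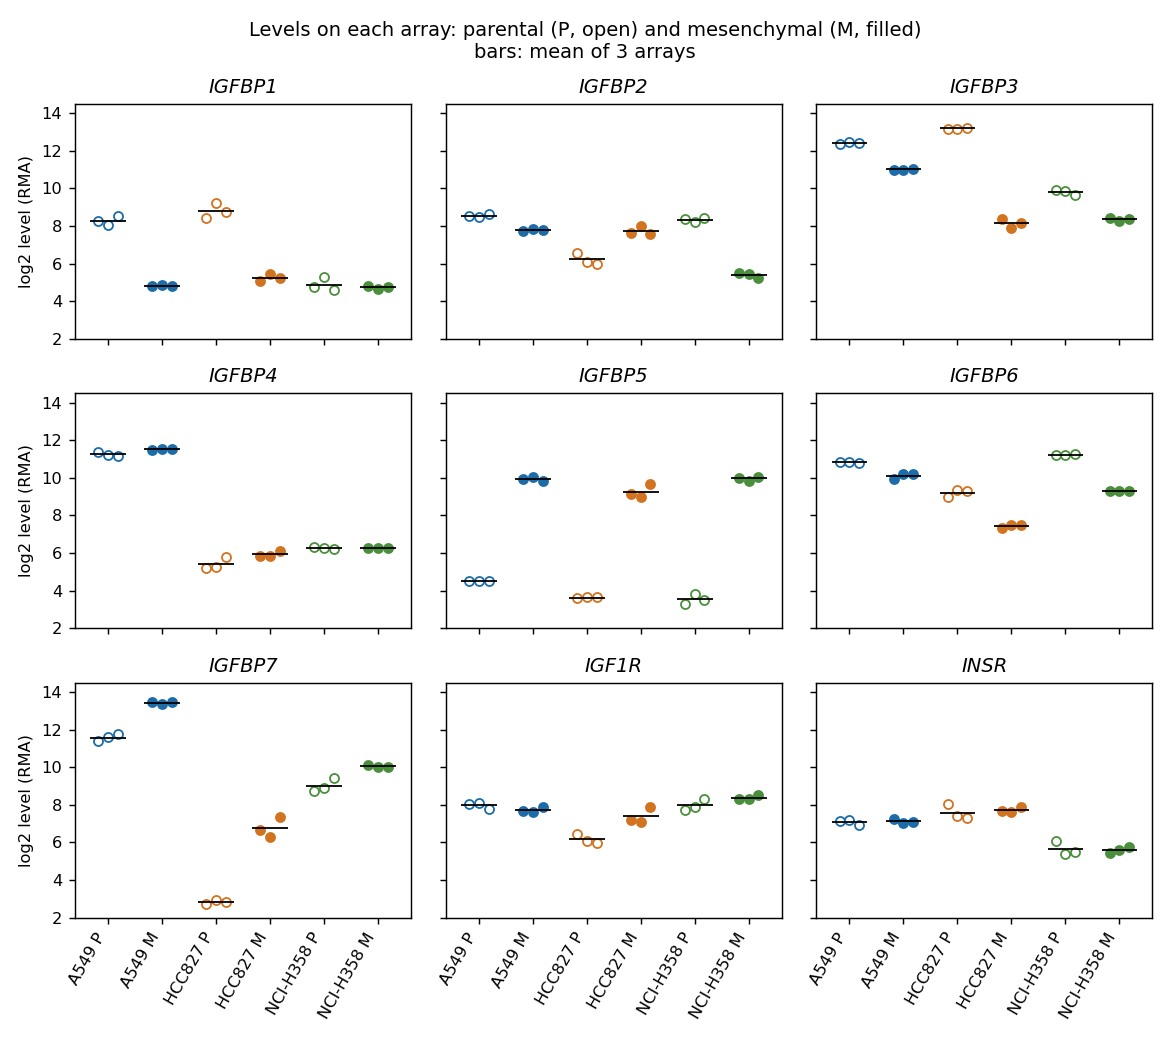
Log2 expression level (RMA) of the 9 measured genes on each of the 18 arrays, in parental (P, open points) and mesenchymal (M, filled points) cells of A549, HCC827 and NCI-H358; bars are means of 3 arrays. IGFBP5 lies at 3.30 to 4.53 on all parental arrays and at 8.97 to 10.04 on all mesenchymal arrays, while IGFBP4 and INSR separate the lines.

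IGFBP3, the main IGF carrier of serum, was lower in the mesenchymal cells of all 3 lines, and most so in HCC827. HCC827 arrays read 13.17, 13.16 and 13.23 in parental cells and 8.39, 7.88 and 8.14 in mesenchymal cells. The values were 12.33, 12.45 and 12.41 against 11.00, 10.97 and 11.05 in A549, and 9.91, 9.84 and 9.64 against 8.43, 8.27 and 8.38 in NCI-H358 cells. No parental array of a line overlapped a mesenchymal array of that line. The mean was lower by 1.39 (A549), 5.05 (HCC827) and 1.44 (NCI-H358) (SE 0.10), or 2.62-fold, 33.1-fold and 2.71-fold. Parental HCC827 had the highest IGFBP3 level of the 6 groups and mesenchymal HCC827 the lowest, where its arrays overlapped those of mesenchymal NCI-H358.

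IGFBP6, which binds IGF2 in preference to IGF1, was also lower in all 3 lines. Its arrays read 10.83, 10.82 and 10.79 in parental and 9.96, 10.17 and 10.19 in mesenchymal A549 cells. They read 8.97, 9.35 and 9.30 against 7.35 to 7.51 in HCC827, and 11.23, 11.21 and 11.25 against 9.30, 9.31 and 9.31 in NCI-H358 cells. The groups of each line stood apart, and the means differed by -0.71, -1.75 and -1.93 (SE 0.088). The mesenchymal NCI-H358 level nonetheless overlapped that of parental HCC827.

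IGFBP1, a binding protein of liver and decidua that insulin represses, was high in 2 of the parental lines and at 4.60 to 5.42 on the arrays of every other group. Parental A549 arrays read 8.25, 8.05 and 8.51, and parental HCC827 arrays 8.40, 9.23 and 8.72. Mesenchymal arrays read 4.80 to 4.84 in A549 and 5.04, 5.42 and 5.24 in HCC827 cells. In NCI-H358 the arrays read 4.74, 5.28 and 4.60 before and 4.81, 4.63 and 4.75 after EMT, and they overlapped. The mean was thus lower by 3.46 in A549 and 3.55 in HCC827 cells and differed by -0.14 in NCI-H358 cells (SE 0.19). Ordered by mean, the 4 lower groups (NCI-H358 in both states and mesenchymal A549 and HCC827) each overlapped the next, and a gap of 3.04 separated them from parental A549.

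IGFBP2, an integrin-binding IGF carrier, went in different directions. It was 8.52, 8.48 and 8.63 in parental and 7.74, 7.85 and 7.80 in mesenchymal A549 cells. In HCC827 it was 6.57, 6.11 and 5.97 in parental and 7.61, 7.97 and 7.59 in mesenchymal cells. In NCI-H358 it was 8.35, 8.22 and 8.42 against 5.47, 5.44 and 5.22. The mean was therefore lower by 0.75 in A549 and by 2.95 in NCI-H358 cells and higher by 1.51 in HCC827 cells (SE 0.13), with no overlap of the arrays in any line.

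IGFBP7, a secreted protein of vessel walls and stroma with weak affinity for IGFs, was higher in the mesenchymal cells of all 3 lines from very different starting levels. Parental HCC827 arrays read 2.74, 2.92 and 2.82, at the 3.24 percentile of all genes, and mesenchymal arrays 6.64, 6.31 and 7.33. A549 arrays read 11.38, 11.60 and 11.75 before and 13.48, 13.34 and 13.45 after EMT. NCI-H358 arrays read 8.71, 8.89 and 9.42 before and 10.14, 10.02 and 10.01 after. The highest HCC827 array was below the lowest array of either other line, although the mean was higher by 3.93 in HCC827, 1.85 in A549 and 1.05 in NCI-H358 cells (SE 0.20). In NCI-H358 the difference was under 2-fold without replicate 1 (0.90) or replicate 2 (0.99) of the parental arrays.

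IGFBP4, an inhibitor of IGF action and a substrate of PAPPA, separated A549 from the other lines in both states. Its arrays read 11.18 to 11.37 in parental and 11.50 to 11.54 in mesenchymal A549 cells. They read 5.22 to 5.76 and 5.84 to 6.08 in HCC827, and 6.19 to 6.33 and 6.25 to 6.28 in NCI-H358 cells. The state differences were 0.26, 0.52 and 0.0019 (SE 0.11) in A549, HCC827 and NCI-H358, the last with overlapping arrays.

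The receptors overlapped between states except for IGF1R in HCC827 cells. IGF1R read 8.02, 8.11 and 7.77 in parental and 7.67, 7.63 and 7.88 in mesenchymal A549 cells, and 7.73, 7.89 and 8.31 against 8.32, 8.30 and 8.51 in NCI-H358 cells, with overlap in both lines. In HCC827 it read 6.44, 6.10 and 5.99 in parental and 7.20, 7.10 and 7.90 in mesenchymal cells, which did not overlap. The differences were -0.25 (A549), 1.22 (HCC827) and 0.40 (NCI-H358) (SE 0.19). Without replicate 3 of mesenchymal HCC827, the highest array of that group for IGF1R, IGFBP5 and IGFBP7, the HCC827 difference of IGF1R was 0.97. INSR overlapped between states in every line, with differences of 0.018, 0.13 and -0.061 (SE 0.18). Its arrays lay at 6.94 to 7.24 in A549, 7.31 to 8.02 in HCC827 and 5.37 to 6.06 in NCI-H358 cells.

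**Figure D2:**
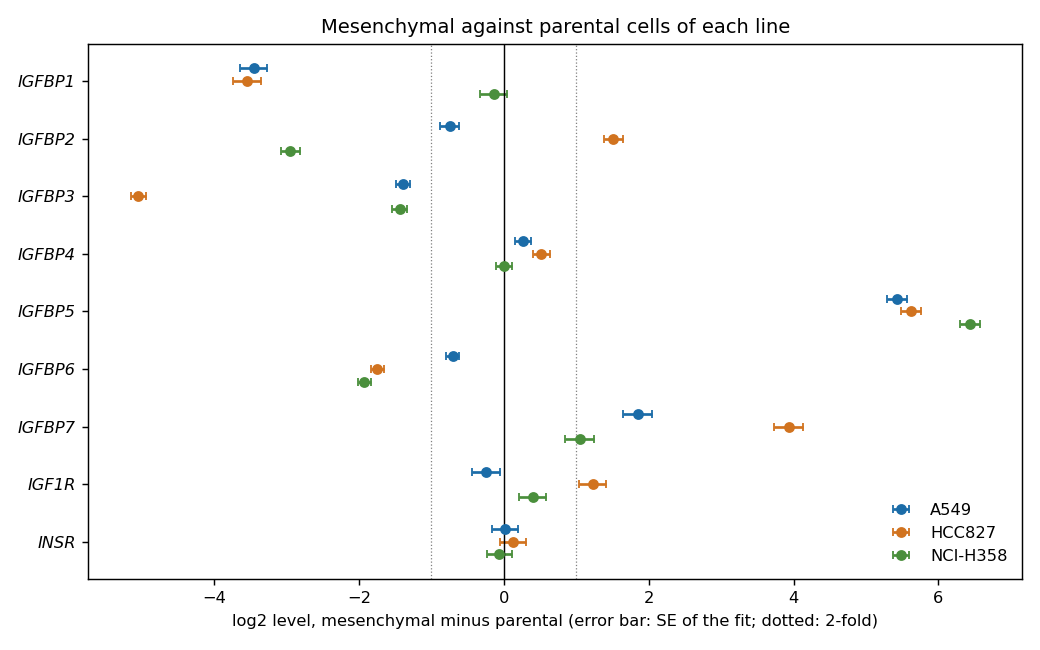
Mesenchymal minus parental difference in log2 level for the 9 genes in A549, HCC827 and NCI-H358, with the SE of the fit; the dotted lines mark a 2-fold difference. IGFBP5 is higher in every line by 5.43 to 6.44, IGFBP3 and IGFBP6 are lower in every line, and IGFBP2 lies on opposite sides of 0.

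With a call defined as a limma adjusted p below 0.05 over all 19849 genes and a difference of at least 2-fold, 2 genes were called higher and 2 lower in A549 cells, where 4.15% and 3.87% of all genes were called in those directions. In HCC827 cells 4 were called higher and 3 lower, beside 4.89% and 6.58% of all genes. In NCI-H358 cells 2 were called higher and 3 lower, beside 3.96% and 5.42%. With the study's stricter thresholds, adjusted p below 1e-05 and more than 5-fold, 2, 4 and 2 genes were called in A549, HCC827 and NCI-H358 cells, beside 1.9%, 2.95% and 2.17% of all genes. The 2 states did not overlap for 7, 8 and 5 of the 9 genes, and for 52.4%, 51.2% and 51.6% of all genes. Since this comparison chose the group, nothing is read from these counts. The median difference of the 9 genes was -0.25, 0.52 and -0.061, and that of all genes -0.021, 0.0051 and 0.015.

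Parental cells of the 3 lines were compared with each other, a contrast that the selection did not use. HCC827 differed from A549 in 5 of 9 genes, all lower in HCC827, where 18.8% of all genes were called. The largest differences were those of IGFBP7, lower by 8.74 (SE 0.20, limma adjusted p = 6.03e-16), and IGFBP4, lower by 5.86 (SE 0.11, limma adjusted p = 7.65e-17). The IGFBP7 level of parental HCC827, 2.83, lay at the low end of the scale and was not shown to stand above background, so the size of its differences from that group is uncertain. IGFBP2 (-2.33), IGF1R (-1.79) and IGFBP6 (-1.61) were the others. NCI-H358 differed from A549 in 5 genes, again all lower, beside 20.4% of all genes, namely IGFBP4 (-5.00), IGFBP1 (-3.40), IGFBP3 (-2.60), IGFBP7 (-2.57) and INSR (-1.46). Between NCI-H358 and HCC827, 7 genes were called beside 15.2% of all genes. IGFBP7 (6.18), IGFBP2 (2.11), IGFBP6 (2.03) and IGF1R (1.80) were higher in NCI-H358, and IGFBP1 (-3.91), IGFBP3 (-3.39) and INSR (-1.93) were lower. IGFBP4, at 0.86, was not called, but was called at 1.04 without replicate 3 of parental HCC827. IGF1R did not differ detectably between parental NCI-H358 and A549, with a difference of 0.0040 (95% interval -0.39 to 0.40).

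Mesenchymal cells of the lines also differed. HCC827 was lower than A549 in 4 genes, beside 17.2% of all genes, namely IGFBP7 (-6.66), IGFBP4 (-5.60), IGFBP3 (-2.87) and IGFBP6 (-2.65). NCI-H358 was lower than A549 in 5 genes, beside 19.8%, namely IGFBP4 (-5.26), IGFBP7 (-3.36), IGFBP3 (-2.65), IGFBP2 (-2.42) and INSR (-1.54). Between NCI-H358 and HCC827, 4 genes were called, beside 15.2%. IGFBP7 (3.30) and IGFBP6 (1.85) were higher in NCI-H358, and IGFBP2 (-2.35) and INSR (-2.13) were lower. IGFBP1, which set parental NCI-H358 apart from both other lines, was not called between any pair of mesenchymal lines, with differences of 0.42, -0.082 and -0.50. IGFBP3 of mesenchymal NCI-H358 and HCC827 differed by 0.22 (95% interval 0.0074 to 0.44), against -3.39 in the parental cells. The mesenchymal IGFBP5 level differed by 0.022 between NCI-H358 and A549 (95% interval -0.27 to 0.32) and was lower in HCC827 than in A549 by 0.69. IGF1R of NCI-H358 exceeded that of HCC827 by 0.97, under the 2-fold limit, and passed it when any of 3 single arrays was left out, at up to 1.22 without replicate 3 of mesenchymal HCC827.

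The difference between states was then compared between lines in the same fit, each comparison sharing 6 arrays with each of the others. HCC827 and A549 differed in 5 of 9 genes, beside 13.4% of all genes. The difference was more negative in HCC827 for IGFBP3 by 3.66 (SE 0.14, limma adjusted p = 4.41e-12) and for IGFBP6 by 1.04 (SE 0.13), and more positive for IGFBP2 by 2.26 (SE 0.19), IGFBP7 by 2.09 (SE 0.28) and IGF1R by 1.47 (SE 0.27). The size for IGFBP7 rests on the parental HCC827 level at the low end of the scale. NCI-H358 and A549 differed in IGFBP1 (3.31), IGFBP2 (-2.20) and IGFBP6 (-1.22), beside 12.7% of all genes. IGFBP5 (1.0) is set apart from these and described below. IGFBP1 values that involve NCI-H358 rest on its parental level, just above the low end of the scale (27.7 percentile). NCI-H358 and HCC827 differed in 4 genes, beside 11%. As NCI-H358 minus HCC827 the signed values were 3.41 for IGFBP1 and 3.61 for IGFBP3, which were lower in mesenchymal cells by more in HCC827 than in NCI-H358. They were -4.46 for IGFBP2 (SE 0.19, limma adjusted p = 1.35e-11), which was lower in mesenchymal NCI-H358 and higher in mesenchymal HCC827, and -2.88 for IGFBP7, which was higher by more in HCC827. For IGFBP5 the selection used the differences that enter here, so it is given without a p. Its difference was 0.19 larger in HCC827 than in A549 (95% interval -0.22 to 0.61), 1.0 larger in NCI-H358 than in A549 (0.59 to 1.42) and 0.81 larger in NCI-H358 than in HCC827 (0.39 to 1.23). The value between NCI-H358 and A549 lay in the parental levels, 3.53 against 4.51, both at the low end of the scale, since the mesenchymal levels differed by 0.022. This value sat at the 2-fold limit and was under it in 7 of the fits that left out 1 array. The lowest was 0.89, without replicate 1 of parental NCI-H358. The call of IGFBP6 between HCC827 and A549 was lost without replicate 2 or 3 of parental or replicate 1 of mesenchymal HCC827, at -0.97 to -1.0. IGFBP4 stayed under 2-fold in all 3 comparisons, the largest being -0.51 for NCI-H358 against HCC827 (limma adjusted p = 0.0174). The differences of INSR were 0.11, -0.079 and -0.19, with 95% intervals that together ran from -0.72 to 0.64.

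**Figure D3:**
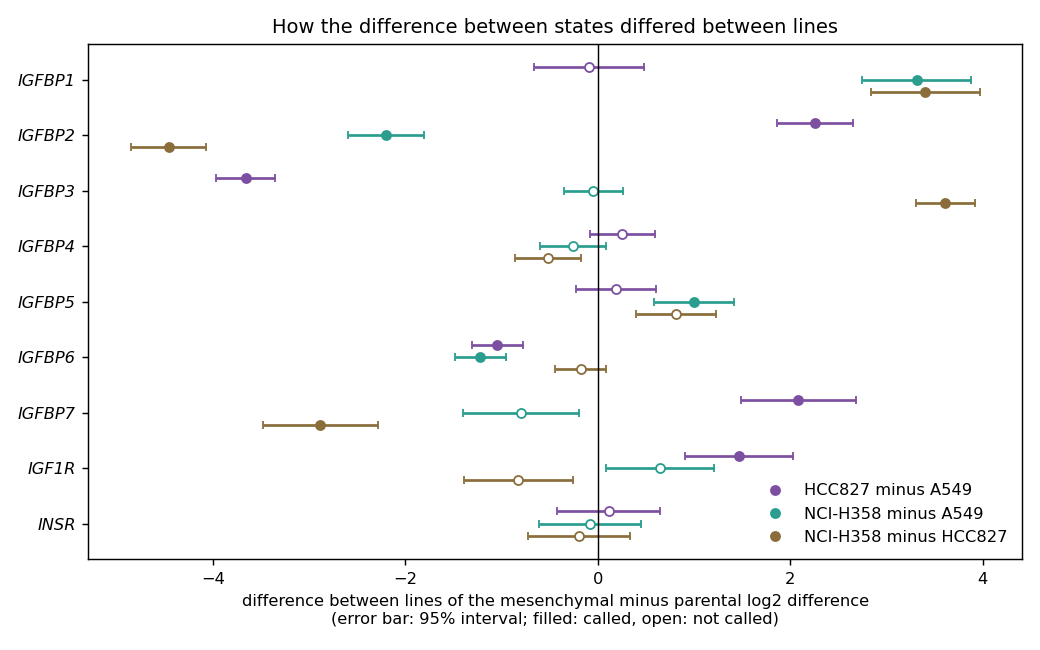
Difference between lines in the mesenchymal minus parental log2 difference of each gene, with 95% intervals; filled points were called at an adjusted p below 0.05 and at least 2-fold, open points were not. IGFBP5 chose the group, so its points are a description and their fill is not read as a call. IGFBP2 differs between every pair of lines (2.26, -2.20 and -4.46), IGFBP1 sets NCI-H358 apart and IGFBP3 sets HCC827 apart. The parental NCI-H358 level of IGFBP1 already lay just above the low end of the scale (27.7 percentile).

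The share of each gene's variation over the 18 arrays that went with state, line or their combination summarises these patterns. State took 98.0% of the sum of squares of IGFBP5, the gene chosen for it, and 47.5% and 47.4% of those of IGFBP3 and IGFBP1. Line took 99.4% for IGFBP4, 94.7% for INSR, 85.4% for IGFBP7, 65.1% for IGF1R and 60.1% for IGFBP6. For IGFBP2 the combination of line and state took the most, 62.0%, since its direction differed between lines. The arrays of one group took 0.217% to 8.24% of the variation. Over all genes the median shares were 6.95% for state, 47.9% for line, 10.0% for the combination and 7.88% for arrays of one group.

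**Figure D4:**
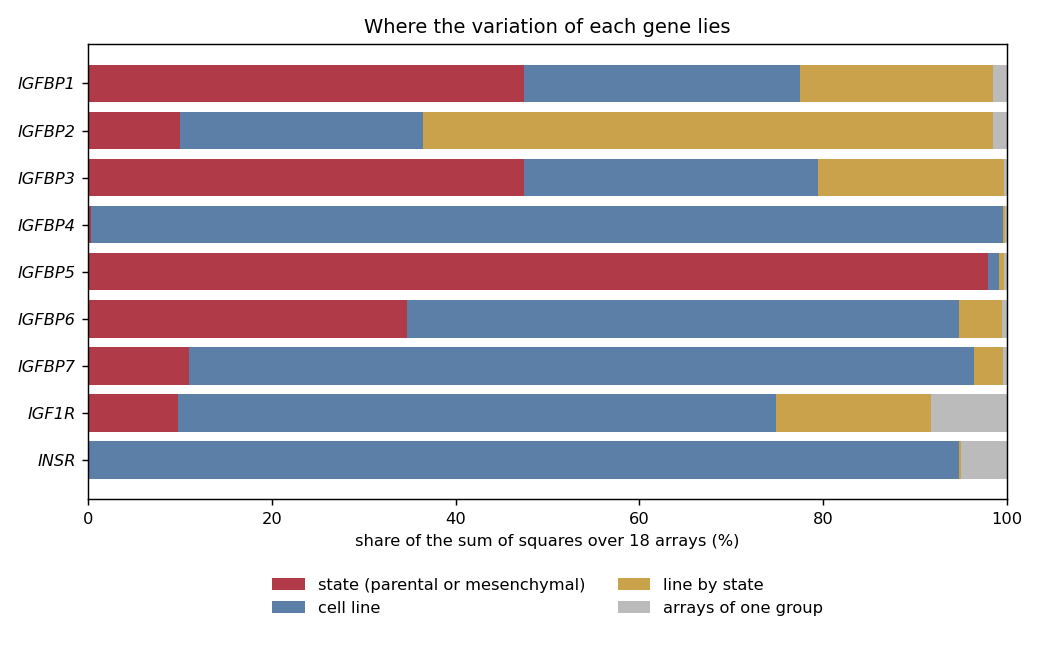
Share of the sum of squares over 18 arrays (%) taken by state, by cell line, by their combination and by the arrays of one group, for each of the 9 genes. State takes 98.0% for IGFBP5, line takes 99.4% for IGFBP4 and the combination takes 62.0% for IGFBP2.

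Another 52 genes of the IGF pathway, none of them chosen by the rule, were tested between mesenchymal and parental cells with limma over all genes. The list was drawn up with earlier results of these data known, so its p values are not those of an unselected list. In A549 cells 7 rose and 4 fell, where 4.15% and 3.87% of all genes did so. In HCC827 cells 9 rose and 2 fell, beside 4.89% and 6.58%, and in NCI-H358 cells 3 rose and 4 fell, beside 3.96% and 5.42%. Of the 52 genes, 34 were called in no line. The same shares of all genes stand beside the counts of the lists that follow, each of which holds few genes. Their median differences were 0.0049, -0.0015 and 0.13, against -0.021, 0.0051 and 0.015 over all genes. Among the 7 proteases of binding proteins and their inhibitors, 4 rose and 1 fell in A549, 4 rose and 1 fell in HCC827, and 1 rose in NCI-H358 cells, with medians of 1.06, 1.46 and 0.66.

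HTRA1, a secreted serine protease that cuts IGFBP5 and other matrix proteins, was the only 1 of the 52 called in the same direction in all 3 lines. In HCC827 it read 5.05, 5.42 and 5.33 in parental and 11.20, 11.31 and 11.58 in mesenchymal cells. In A549 it read 9.29, 9.27 and 9.26 against 10.73, 10.68 and 10.68, and in NCI-H358 4.09, 4.96 and 4.92 against 6.10, 5.75 and 6.00. It rose by 6.09 in HCC827 (SE 0.18, limma adjusted p = 2.84e-14), 1.42 in A549 (limma adjusted p = 3.97e-06) and 1.29 in NCI-H358 cells (limma adjusted p = 1.08e-05), with no overlap in any line. The rise in HCC827 exceeded that in A549 by 4.67 (SE 0.25, limma adjusted p = 1.55e-10).

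PAPPA, the metalloprotease that cuts IGFBP4 and IGFBP5, rose by 4.30 in HCC827 (SE 0.074, limma adjusted p = 6.37e-17) and by 1.34 in A549 cells. Its HCC827 arrays read 3.42, 3.38 and 3.50 in parental and 7.78, 7.83 and 7.60 in mesenchymal cells, and its A549 arrays 11.01, 10.92 and 10.96 against 12.37, 12.34 and 12.20. The parental HCC827 level of PAPPA lay at the low end of the scale (9.89 percentile), so the size of its rise there is uncertain. In NCI-H358 PAPPA stayed at the low end of the scale, at 3.35 to 3.40 and 3.68 to 3.86. A few genes were named after their values were seen. ADAM12, a protease of IGFBP3 and IGFBP5, rose by 4.02 in HCC827 and 1.06 in A549 cells, the latter under 2-fold without replicate 3 of parental (0.96) or replicate 2 of mesenchymal A549 (0.91). STC1, an inhibitor of PAPPA, rose by 3.85 in A549 cells, and STC2, another inhibitor of PAPPA, fell there by 1.25. In HCC827 STC2 was higher by 0.98, under 2-fold, and was called without replicate 2 (1.05) or replicate 3 (1.06) of the parental arrays. PAPPA2 rose by 1.46 and ADAM28 fell by 2.52 in HCC827 cells.

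Among 3 related proteins, ESM1, a proteoglycan with an IGFBP-type domain, rose by 4.31 in A549 (SE 0.16) and 1.46 in HCC827 cells and differed by -0.31 in NCI-H358 cells, where it stayed at the low end of the scale. IGFBPL1, an IGFBP-like secreted protein, rose by 1.29 in HCC827 and fell by 1.39 in NCI-H358 cells. The ligand and carrier list (IGF1, INS, IGFALS and the imprinted RNA H19, whose gene lies beside IGF2) held 1 call, H19, which fell by 1.45 in A549 cells (SE 0.14). IGF1 lay at the low end of the scale in all 6 groups, with means of 3.08 to 3.51. None of the 6 receptor and clearance genes was called in any line, since none reached the 2-fold limit. In A549, HCC827 and NCI-H358 cells 3, 4 and 3 of them had an unadjusted limma p below 0.05. These counts were near the 49.4%, 50.6% and 46.6% of all genes at that p. IGF2R, which clears IGF2, was higher by 0.93, 0.88 and 0.82, just under the 2-fold limit in all 3 lines (limma adjusted p = 3.97e-07, 5.29e-07 and 1.52e-06). With 1 array left out, FURIN, a protease that matures both receptors, passed it in A549 at 1.02 (without mesenchymal replicate 3) and the endocytic receptor LRP1 in HCC827 at 1.04 (without mesenchymal replicate 2).

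The adaptor IRS1, the first substrate of both receptors, went in opposite directions between lines. Its arrays read 7.69, 7.71 and 7.75 in parental and 6.41, 6.32 and 6.09 in mesenchymal A549 cells. They read 7.84, 7.60 and 7.69 against 8.81, 8.96 and 8.92 in HCC827, and 8.22, 8.19 and 8.10 against 9.23, 9.23 and 9.21 in NCI-H358 cells. IRS1 fell by 1.44 in A549 and rose by 1.19 in HCC827 and 1.05 in NCI-H358 cells (SE 0.081), and the change in HCC827 exceeded that in A549 by 2.63 (limma adjusted p = 1.30e-11). GRB10, an adaptor that restrains both receptors, rose by 1.35 in A549 and 1.44 in HCC827 and fell by 1.40 in NCI-H358 cells (SE 0.065). Of the 10 adaptors, 1 rose and 2 fell in A549, 2 rose and 1 fell in HCC827, and 1 rose and 1 fell in NCI-H358 cells.

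Of 19 genes of the PI3K and AKT pathway, 1 rose in A549, 1 rose in HCC827, and 1 rose and 1 fell in NCI-H358 cells. FOXO1, a transcription factor that AKT holds out of the nucleus, rose by 3.15 in A549 (SE 0.13, limma adjusted p = 4.66e-12) and by 1.14 in NCI-H358 cells, and the latter was under 2-fold, at 0.97, without replicate 1 of parental NCI-H358. Its A549 arrays read 7.43, 7.36 and 7.42 in parental and 10.53, 10.59 and 10.54 in mesenchymal cells. PIK3R3, a regulatory subunit of PI3K, fell by 1.36 in NCI-H358 cells. In HCC827 it was lower by 0.95, under 2-fold, and was called without replicate 3 of the parental (-1.04) or of the mesenchymal arrays (-1.01). IGF2BP3, an RNA-binding protein of IGF2 transcripts, fell by 1.30 in NCI-H358 cells and differed by -0.67 in HCC827 and -0.39 in A549 cells.

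**Figure D5:**
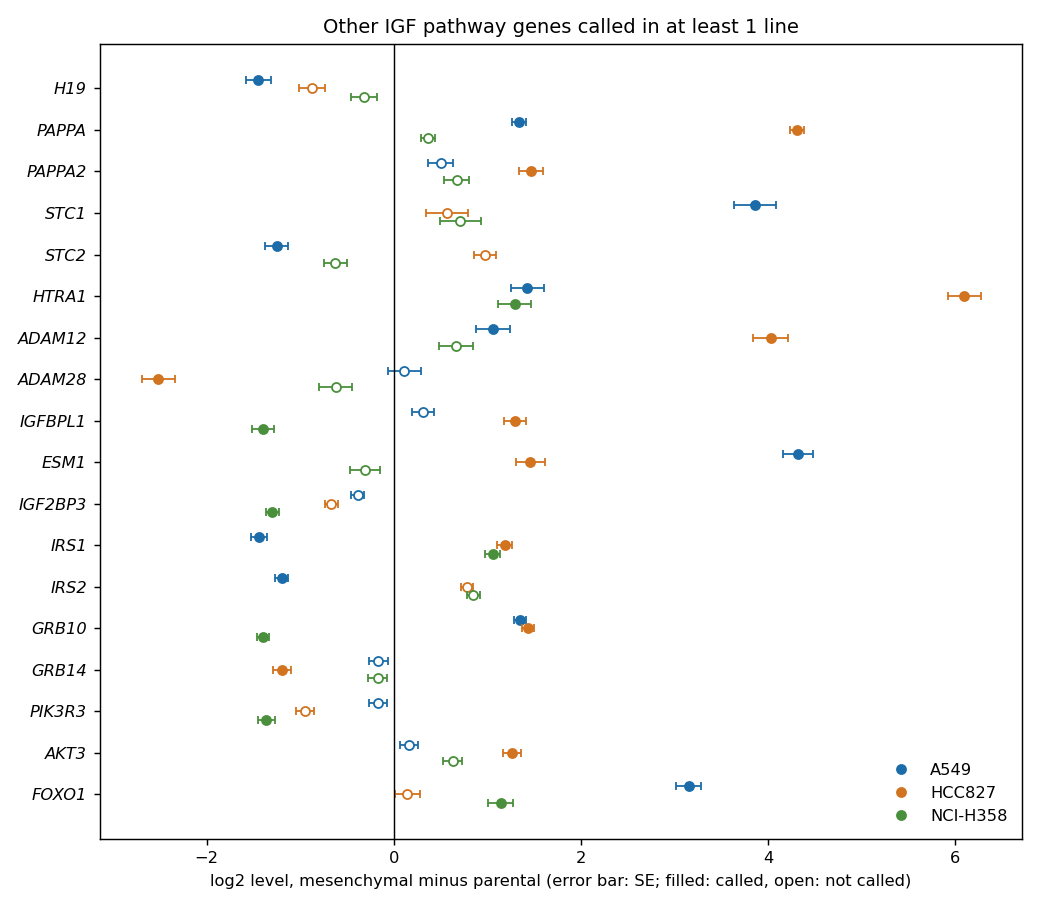
Mesenchymal minus parental log2 difference, with its SE, of the 18 other IGF pathway genes called in at least 1 line; filled points were called in that line, open points were not. HTRA1 rises in all 3 lines, and IRS1, GRB10 and IGFBPL1 are called in opposite directions in different lines.

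The genes whose pattern was most like that of each IGF axis gene were found by the root mean square log2 difference over the 18 arrays, each gene centred on its own mean. For IGFBP5 they were HS3ST3B1, a heparan sulfate sulfotransferase, at 0.763, COL1A1, a chain of type I collagen, at 1.17, the cytokine gene IL11 at 1.17, FAM198B at 1.19 and C4orf26 at 1.25. The standard deviation of IGFBP5 itself over the arrays was 3.03. For the other genes the nearest were WISP2 for IGFBP1 (0.391), CPT1A for IGFBP2 (0.459), NR5A2 for IGFBP3 (0.476), CMBL for IGFBP4 (0.241), SLC16A5 for IGFBP6 (0.314), MLLT11 for IGFBP7 (1.14), H3F3B for IGF1R (0.258) and ANKFY1 for INSR (0.248). A small value is easier to reach for a gene that varies little, and the measure describes likeness over these arrays only.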

How the data were processed

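Total RNA of 18 samples was hybridized to Affymetrix U133 Plus 2.0 arrays. The authors normalized the arrays by RMA (named in the submitters' processing notes; version not given in the sources used here), which subtracts background, equalizes the arrays' signal distributions and summarizes each probe set, and deposited log2 values with 1 probe set per gene. How that probe set was chosen is not given in the sources used here, so levels of different genes were not compared, and other probe sets were not analysed here. Quantile-type normalization of this kind assumes that arrays share 1 distribution. All 18 columns matched 1 sample title each.

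Groups came from the sample titles. A single limma model (version 3.58.1, run under R 4.3.3) of the 6 groups, without covariates, gave all differences. Benjamini-Hochberg adjustment covered all 19849 genes, and a gene was called at an adjusted p below 0.05 and at least 2-fold. Levels under the 25 percentile of all genes on an array group were described as the low end of the scale. The steps were tested on simulated data. The precision is limited by 3 arrays per group.

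The members, pathway lists and markers were chosen with earlier results of these data known. Named pathway genes were those called in 1 direction in all 3 lines, those called in opposite directions, and the 2 largest called changes of each list. Promoter sequences were taken from RefSeq. Alternatives were the study's thresholds, no minimum fold, fits of the compared groups only, a trended variance prior, leaving out dim probe sets, median centring, the methods' t-test with Benjamini-Hochberg adjustment, and each array left out in turn.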

Additional observations from a re-analysis of the deposited data

Results flagged for a closer look

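The difference between mesenchymal and parental cells itself differed between lines for several genes, by contrasts within the limma fit. Between HCC827 and A549 it differed by 2.26 for IGFBP2, -3.66 for IGFBP3, -1.04 for IGFBP6, 2.09 for IGFBP7, 1.47 for IGF1R and 2.63 for IRS1 on the log2 scale. Between NCI-H358 and A549 it differed by 3.31 for IGFBP1, -2.20 for IGFBP2, -1.22 for IGFBP6, 2.49 for IRS1, -1.70 for IGFBPL1 and -2.75 for GRB10. For IGFBP5 that value was 1.0, and it is a description because IGFBP5 chose the group. Between NCI-H358 and HCC827 it differed by 3.41 for IGFBP1, -4.46 for IGFBP2, 3.61 for IGFBP3, -2.88 for IGFBP7, -2.68 for IGFBPL1 and -2.83 for GRB10.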

How the results depend on the processing

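No called difference of a named gene reversed under any alternative run. With the study's thresholds, IGF axis genes called between states numbered 2, 4 and 2 in A549, HCC827 and NCI-H358 cells, and other pathway genes 3, 4 and 0, where 1.9%, 2.95% and 2.17% of all genes were called. In A549, HCC827 and NCI-H358 cells 29, 35 and 34 of the 52 pathway genes had an unadjusted limma p below 0.05. The shares of all genes at that p were 49.4%, 50.6% and 46.6%. Between lines the study's thresholds left 3, 4 and 3 IGF axis genes for parental HCC827 against A549, NCI-H358 against A549 and NCI-H358 against HCC827. They left 4, 4 and 2 for mesenchymal cells in the same order. For the difference between states they left 1, 1 and 4. With an adjusted p and no minimum fold, 28, 34 and 30 pathway genes were called. Of all genes, 49.4%, 50.6% and 46.6% had an unadjusted limma p below 0.05, which is a looser limit. The share of all genes at an adjusted p was not counted, so nothing is read from those pathway counts. At an adjusted p without a minimum fold, parental HCC827 against A549 gave 9 IGF axis genes and mesenchymal NCI-H358 against HCC827 gave 8. The difference between states of NCI-H358 against HCC827 gave 7, with IGFBP5 among them as a description. The share of all genes was not counted for these between-line rules, so nothing is read from those counts. With each array left out in turn, IGF axis genes called between states numbered 4 to 4, 6 to 7 and 4 to 5, and pathway genes 10 to 12, 11 to 13 and 6 to 7. In the order HCC827 against A549, NCI-H358 against A549 and NCI-H358 against HCC827, the ranges were 5 to 5, 5 to 6 and 7 to 8 for parental cells, 4 to 4, 5 to 5 and 4 to 5 for mesenchymal cells, and 4 to 5, 3 to 4 and 4 to 5 for the difference between states. Where IGFBP5 entered the ranges for the difference between states, it did so as a description only. The share of all genes was not counted in the fits that left out 1 array, so nothing is read from these ranges. The call of IGFBP7 in NCI-H358 cells was lost without replicate 1 or 2 of the parental arrays. Centring each array on its median moved differences by at most 0.075, which took IGFBP5 between NCI-H358 and A549 below 2-fold (0.97) for the difference between states and to -1.03 for parental cells. The filter on dim probe sets kept 12076 genes, all 9 IGF axis genes and 44 of the 52 pathway genes. The filter, the intensity trend, the fits of the compared groups only and the t-test changed the side of the threshold for no named gene where they were checked. IGF axis genes between states were not checked gene by gene under these settings, since they are given without a p. All of these settings keep the group means, so only the p part of a call could change under them. The t-test was not run on the difference between states. No paired analysis was possible because the labels give the arrays no replicate numbers that are shared between groups. Groups of 3 arrays allow no exact permutation p below 0.10, and the cause of each change was not tested.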
